A study of Mus musculus with 9 samples.

Results

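Genes that are widely used to recognize retinal ganglion cells (RGCs) or that build their axons were followed in the RNA-seq data of cells sorted as RGCs from mouse retina. They were chosen by name, and all 10 were among the 15228 genes listed: the neurofilament genes Nefl, Nefm and Nefh, then Tubb3, Sncg, Thy1, Pou4f1, Isl1, Rbpms and Slc17a6. The sequenced cells came from wild-type mice (C57BL/6J in the methods) in 3 groups of 3 libraries. The Ctrl group was uninjured. The ONC group was taken on day 3 after optic nerve crush with PBS as vehicle, and the TPEN group on day 3 after the same crush with TPEN, a membrane-permeable chelator of zinc that was injected into the eye. According to the methods, the cells were sorted as positive for the surface protein that Thy1 encodes and negative for 3 other surface markers, a protein of leukocytes and 2 carbohydrate epitopes that some amacrine cells carry, so the gate also selected against cells that carry these. Levels are given as RPKM, read numbers scaled by the exon length of the gene and the total of the library. The totals used for this scaling, worked out from the RPKM values, were 19946993 to 23109754 reads, and the number of reads sequenced may differ. No source states that each library of a group was from a different mouse, so the p-values measure only the spread between these libraries.

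RGCs are the output neurons of the retina, and their axons form the optic nerve. Neurofilaments are the intermediate filaments of axons, assembled from a light, a medium and a heavy subunit, and they set the calibre of large axons. Crushing the optic nerve damages RGC axons and is followed by the death of many RGCs. In mouse retina, Pou4f1, Rbpms and Slc17a6 are used as markers of RGCs because other retinal neurons hold little of their products. The other genes are less restricted, since horizontal cells also contain neurofilaments, ON bipolar and starburst amacrine cells use Isl1, and T cells and fibroblasts carry the product of Thy1.

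In the GRCm38 coordinates of the deposited table, Nefl lies on chromosome 14 from 68083863 to 68089095 on the plus strand, and Nefm from 68082590 to 68124846 on the minus strand. Their exons share 1108 bases (68083863 to 68084970), which are 32.8% of the exon bases of Nefl and 19.2% of those of Nefm. Whether counting used the strand is not stated, so reads from these shared bases may count for either gene. Nefh lies on chromosome 11 (4938754 to 4948064, minus strand), Tubb3 on chromosome 8 (123411424 to 123422015, plus), and Thy1 on chromosome 9 (44043384 to 44048579, plus). Isl1 lies on chromosome 13 (116298281 to 116309689, minus), Rbpms on chromosome 8 (33782643 to 33929863, minus), and Slc17a6 on chromosome 7 (51622006 to 51671119, plus). Sncg (34370274 to 34374789) and Pou4f1 (104461676 to 104467999) are both on the minus strand of chromosome 14. All 10 genes are protein-coding in GENCODE M21, and no exon of the other 8 overlapped an exon of another annotated gene.

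Promoters in the RefSeq table (GRCm38.p6) matched 5 of the 10 genes: Pou4f1, Sncg, Tubb3, Isl1 and Slc17a6. The 250 bases before the RefSeq start are shown for Pou4f1, which had the largest change of the 10 after crush. Capitals mark matches, on either strand, to the GC box GGGCGG, the CCAAT box, and TGCACNC or TGCGCNC, the core of the element bound by the zinc-sensing factor MTF-1. The window is chr14:104468000-104468249, read on the minus strand.
Pou4f1: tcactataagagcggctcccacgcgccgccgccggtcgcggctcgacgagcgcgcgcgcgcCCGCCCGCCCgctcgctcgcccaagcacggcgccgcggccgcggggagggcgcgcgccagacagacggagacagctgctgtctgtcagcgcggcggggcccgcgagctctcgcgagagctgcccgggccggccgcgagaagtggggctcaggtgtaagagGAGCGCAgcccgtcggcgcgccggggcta
The window held 2 overlapping GC boxes and 1 TGCGCNC match. Of 32851 promoter windows of this length in the table, 32.7% held the GC box, 33.9% the CCAAT box, 10.4% TGCACNC and 12.5% TGCGCNC. A match describes the letters only.

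The levels of the 10 genes spread widely. Nefl had a mean of 240 RPKM over the 9 libraries and ranked 153 of 15228 genes, whereas Rbpms had 0.439 RPKM and ranked 13805, so that the mean of Nefl was 547 times that of Rbpms. Nefm (51.5 RPKM, rank 847), Nefh (26.1 RPKM, rank 1811) and Sncg (20.5 RPKM, rank 2289) followed Nefl. Thy1 (5.74 RPKM, rank 6283) and Tubb3 (3.92 RPKM, rank 7783) were close to the median of all genes, 4.10 RPKM. Isl1 (1.83 RPKM) ranked 10436. The genes most restricted to RGCs in mouse retina were the lowest, with Slc17a6 (0.380 RPKM) at rank 14020 and Pou4f1 (0.332 RPKM) at rank 14252. The ranges of the libraries did not overlap between Nefl, Nefm and Nefh within any group. Nefh and Sncg overlapped in ONC only, and Thy1 and Tubb3 in Ctrl only. At the bottom of the order, Rbpms overlapped Pou4f1 in Ctrl and TPEN, and Slc17a6 in ONC and TPEN.

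**Figure D1:**
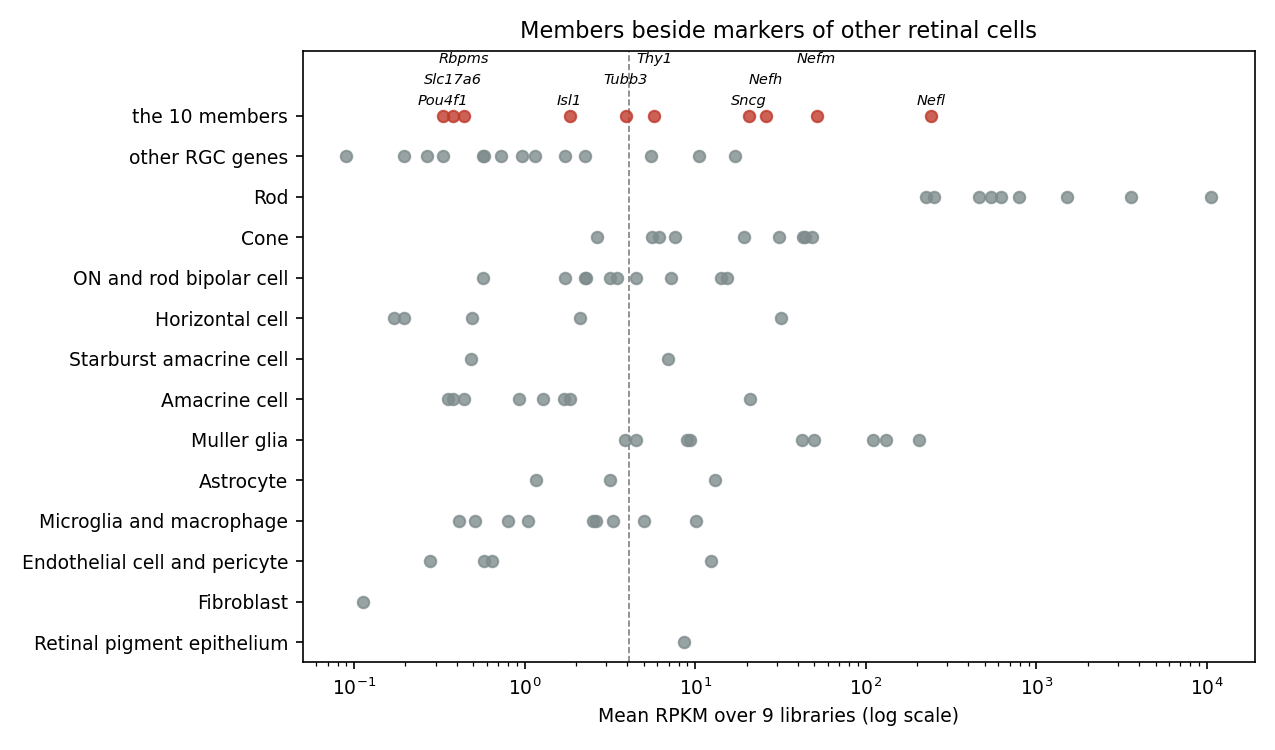
Mean RPKM over the 9 libraries (log axis) of the 10 genes (red), and of other RGC genes and marker genes of other retinal cells (grey, 1 point per gene). The dashed line is the median of all 15228 genes. Pou4f1, Slc17a6 and Rbpms lie below 1 RPKM, whereas every rod marker lies above 200 RPKM.

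Relatives of 2 of these genes were far higher. Slc17a7, which encodes the vesicular glutamate transporter of photoreceptors and bipolar cells, had a mean of 160 RPKM (rank 232), 421 times the mean of Slc17a6. Sncb, which encodes beta-synuclein, had 124 RPKM (rank 320), 6.02 times the mean of Sncg. Rod markers were the highest of the cell-type lists, with Gnat1, the gene of rod transducin, at 10642 RPKM and rank 2. The summed level of 9 rod markers was 19678 to 20308 RPKM in Ctrl, 17360 to 17456 in ONC and 18547 to 18594 in TPEN. Since the RNA of the defining markers Pou4f1, Rbpms and Slc17a6 was near the bottom of the listed genes, the name RGC stands here for the sort. According to the methods, sorted cells were also stained for RBPMS, the protein that Rbpms encodes. These RNA levels do not measure that protein. In such bulk samples, fewer cells of a type and less RNA per cell cannot be told apart.

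The means of all 3 neurofilament subunits were lowest in TPEN, but in ONC/Ctrl 1 subunit rose, 1 fell and 1 did not pass. Nefl, the light subunit, was at 260, 254 and 259 RPKM in Ctrl, 267, 271 and 256 in ONC and 206, 193 and 195 in TPEN. Ctrl and ONC overlapped, and every TPEN library was below all others. Nefl fell by 25.2% from ONC to TPEN, a log2 fold change of -0.42 (limma, SE 0.03, adjusted p = 6.3e-05). It also fell in TPEN/Ctrl, by a log2 fold change of -0.38 (limma, SE 0.03, adjusted p = 4.9e-05), while its ONC/Ctrl value was 0.04 on the log2 scale (limma adjusted p = 0.473).

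Nefm, the medium subunit, was at 50.2, 46.7 and 51.6 RPKM in Ctrl, 59.9, 61.9 and 58.8 in ONC and 45.9, 45.0 and 43.6 in TPEN. The 3 groups did not overlap, with ONC highest. Nefm rose in ONC/Ctrl by a log2 fold change of 0.28 (limma, SE 0.04, adjusted p = 0.00111). It fell by 0.42 on the log2 scale in TPEN/ONC (limma, SE 0.04, adjusted p = 0.000380). The TPEN/Ctrl difference, -0.14 on the log2 scale, did not pass (limma adjusted p = 0.0511, with a range of 0.00524 to 0.152 over 16 alternative settings).

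Nefh, the heavy subunit, which carries most of the phosphorylation sites of neurofilaments, went the other way after crush. It was at 31.8, 31.0 and 30.5 RPKM in Ctrl, 25.5, 24.6 and 23.7 in ONC and 23.0, 21.5 and 22.9 in TPEN. The groups did not overlap, and Ctrl was highest. Nefh fell by 0.34 on the log2 scale in ONC/Ctrl (limma, SE 0.04, adjusted p = 0.000366) and by 0.47 in TPEN/Ctrl (limma, SE 0.04, adjusted p = 6.9e-05). The difference between TPEN and ONC was -0.13 on the log2 scale and did not pass (limma adjusted p = 0.0946).

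**Figure D2:**
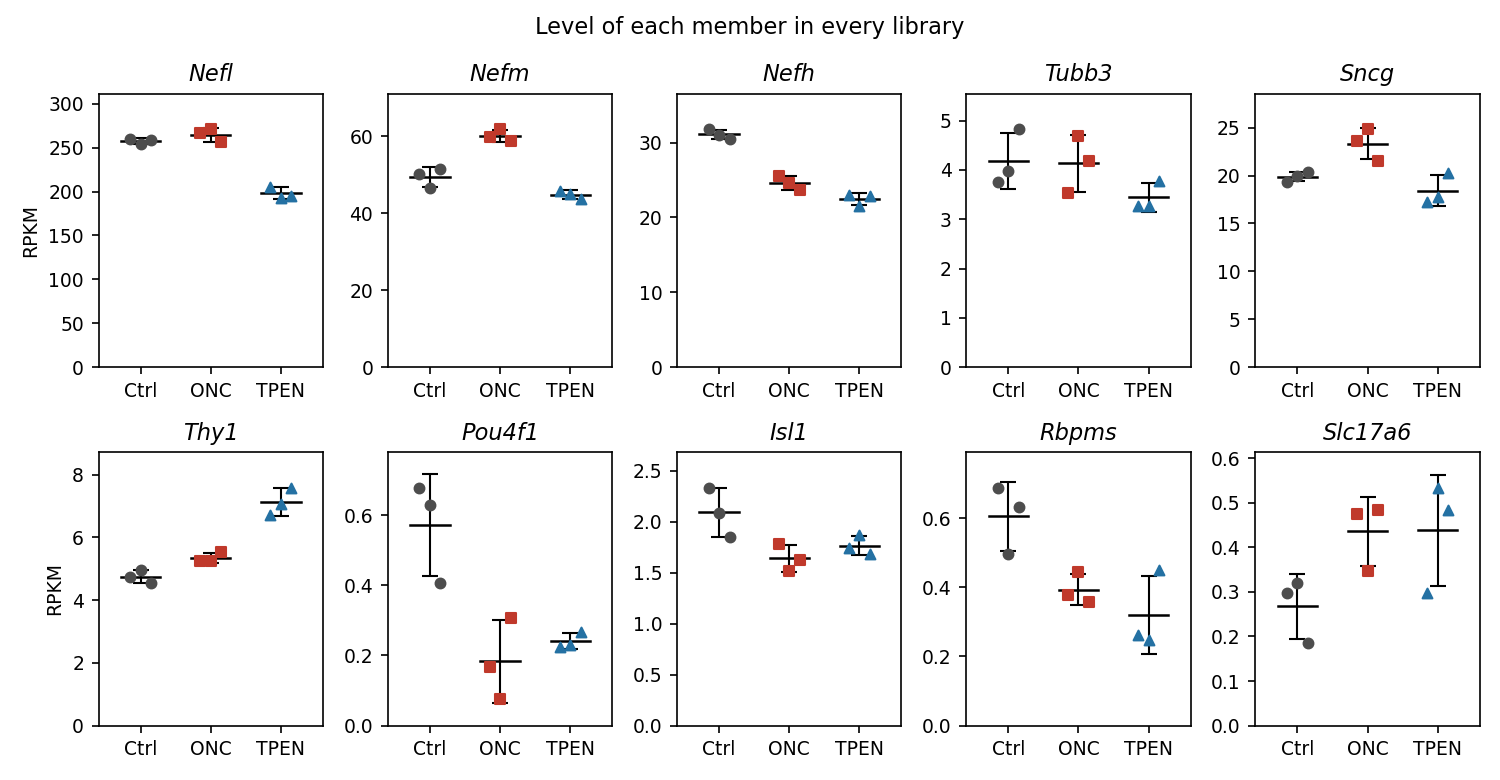
RPKM of the 10 genes in each of the 9 libraries, with the mean and SD of each group (n = 3) in black; every axis starts at 0 and has its own scale. Nefl and Nefm are lowest in TPEN, Nefh is highest in Ctrl, and Thy1 is highest in TPEN.

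A ratio of 2 subunits within a library does not depend on the library total. The level of Nefm was 19.2 ± 0.784% of that of Nefl in Ctrl, 22.8 ± 0.263% in ONC and 22.7 ± 0.584% in TPEN (mean ± SD, n = 3). All 6 crushed libraries were above the 3 Ctrl libraries, and ONC and TPEN overlapped. The 3 groups differed in an exact permutation test over all 280 ways to divide the libraries (p = 0.0286, adjusted over the 2 ratios 0.0286). The level of Nefh was 12.1 ± 0.256% of that of Nefl in Ctrl, 9.30 ± 0.235% in ONC and 11.4 ± 0.323% in TPEN. ONC was below both other groups, with no overlap between any of the 3. The exact permutation p was 0.00357, the smallest that the 280 divisions can give, and 0.00714 after adjustment over the 2 ratios. Pairs of groups of 3 libraries cannot go below an exact p of 0.1, which each pair without overlap had. The shared exon bases touch both ratios, since Nefl is part of each.

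**Figure D3:**
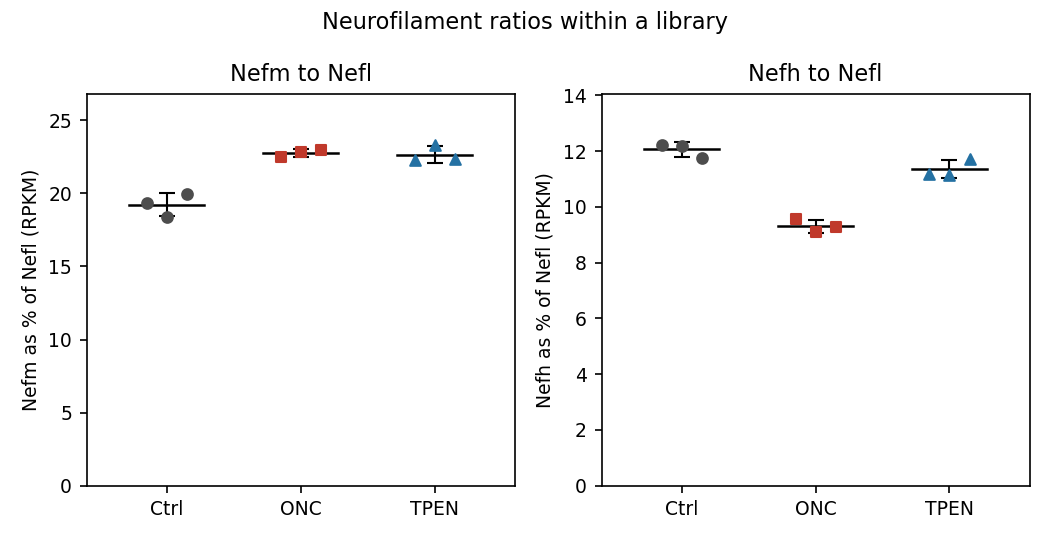
RPKM of Nefm (left) and Nefh (right) as a percentage of that of Nefl in the same library, with the mean and SD of each group (n = 3) in black and axes from 0. The Nefm ratio is higher in all 6 crushed libraries than in Ctrl, and the Nefh ratio is lowest in ONC.

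Tubb3, the neuronal beta-tubulin, did not pass in any comparison. It was at 3.75, 3.98 and 4.83 RPKM in Ctrl, 3.54, 4.69 and 4.17 in ONC and 3.27, 3.28 and 3.78 in TPEN. The groups overlapped in every pair. On the log2 scale its change was -0.02 in ONC/Ctrl (95% interval -0.30 to 0.26), -0.25 in TPEN/ONC (-0.53 to 0.03) and -0.27 in TPEN/Ctrl (-0.55 to 0.01). Tubulin genes are similar in sequence, and how reads that match several of them were counted is not stated.

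Sncg encodes gamma-synuclein, a small cytosolic protein of RGCs and other neurons. It was at 19.4, 19.9 and 20.4 RPKM in Ctrl, 23.6, 24.8 and 21.6 in ONC and 17.3, 17.8 and 20.2 in TPEN. ONC was above both other groups, and Ctrl and TPEN overlapped. Its log2 fold change in ONC/Ctrl was 0.23 (limma, SE 0.07, adjusted p = 0.0458), but 9 of 16 alternative settings put the adjusted p above 0.05, with a range of 0.0213 to 0.145. Among single libraries left out, any Ctrl library, ONC replicate 1 or 2, or TPEN replicate 2 ended this call, with a limma adjusted p of 0.0576 to 0.145. In TPEN/ONC, Sncg fell by 0.34 on the log2 scale (limma, SE 0.07, adjusted p = 0.0161). This call was lost without ONC replicate 1 or 2 or TPEN replicate 1 or 2, where the limma adjusted p was 0.0576 to 0.0639.

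Thy1, a surface glycoprotein whose protein was used for the sort, was the member that went up with TPEN. It was at 4.72, 4.96 and 4.54 RPKM in Ctrl, 5.26, 5.26 and 5.54 in ONC and 6.70, 7.08 and 7.58 in TPEN. The 3 groups did not overlap. Thy1 rose by a log2 fold change of 0.40 in TPEN/ONC (limma, SE 0.06, adjusted p = 0.00587) and of 0.58 in TPEN/Ctrl (limma, SE 0.06, adjusted p = 0.000323). The second is a 1.49-fold change, the largest of the 7 genes tested. The ONC/Ctrl difference, 0.17 on the log2 scale, did not pass (limma adjusted p = 0.0983). The gate selected cells by the protein of this gene, and the part of the gate in its level was not tested.

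Pou4f1, Rbpms and Slc17a6 had a mean below 0.5 RPKM and were tested only in a fit without that limit, over all 15228 genes. Pou4f1, which encodes the transcription factor Brn3a, was at 0.678, 0.630 and 0.405 RPKM in Ctrl, 0.168, 0.0746 and 0.308 in ONC and 0.225, 0.231 and 0.268 in TPEN. These values stand for 38 to 71 reads in Ctrl, 8 to 33 in ONC and 21 to 25 in TPEN. Every Ctrl library was above every crushed library. The mean fell by 67.9% from Ctrl to ONC, with a log2 fold change of -1.30 (limma, SE 0.29, adjusted p = 0.0108). The adjusted p stayed between 0.000343 and 0.0441 over 14 alternatives, while the log2 fold change ran from -1.81 on whole reads to -0.41 with 1 RPKM added. In TPEN/Ctrl it was -0.95 (limma adjusted p = 0.0597, range 0.0101 to 0.167), and in TPEN/ONC 0.35 (limma adjusted p = 0.533), where the groups overlapped.

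Isl1, a LIM-homeodomain transcription factor of RGCs and several inner retinal neurons, was at 2.33, 2.09 and 1.85 RPKM in Ctrl, 1.78, 1.52 and 1.63 in ONC and 1.74, 1.86 and 1.68 in TPEN. Ctrl and ONC did not overlap, but the log2 difference of -0.33 did not pass (limma, SE 0.11, adjusted p = 0.0705, range 0.0362 to 0.214 over 16 alternatives). The other differences were 0.10 in TPEN/ONC and -0.23 in TPEN/Ctrl, with limma adjusted p of 0.660 and 0.223.

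Rbpms, an RNA-binding protein gene, was at 0.688, 0.495 and 0.632 RPKM in Ctrl, 0.379, 0.444 and 0.357 in ONC and 0.261, 0.246 and 0.449 in TPEN, from 21 to 62 reads in a library. Ctrl was above all 6 crushed libraries. The log2 fold change was -0.77 in TPEN/Ctrl (limma, SE 0.20, adjusted p = 0.0333), and 7 of 14 alternatives lost that call, with a range of 0.00967 to 0.107. It was -0.51 in ONC/Ctrl (limma adjusted p = 0.118) and -0.26 in TPEN/ONC, which did not pass either. The call in TPEN/Ctrl was lost without Ctrl replicate 1 or 3, ONC replicate 1, or TPEN replicate 1 or 2, where the limma adjusted p was 0.0509 to 0.107.

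Slc17a6, the vesicular glutamate transporter of RGCs, was at 0.297, 0.321 and 0.185 RPKM in Ctrl, 0.475, 0.347 and 0.484 in ONC and 0.297, 0.534 and 0.483 in TPEN, from 20 to 64 reads in a library. ONC was above Ctrl without overlap, while TPEN overlapped both. The log2 differences of 0.55 in ONC/Ctrl and 0.54 in TPEN/Ctrl did not pass (limma adjusted p = 0.130 and 0.160), and in TPEN/ONC it was -0.01 (limma adjusted p = 0.986). In level, Pou4f1 and Rbpms were lower in every ONC library than in any Ctrl library, and Slc17a6 was higher. Of these genes, only Pou4f1 passed in ONC/Ctrl (limma adjusted p = 0.0108). With 3 libraries per group, a lack of overlap alone cannot give an exact p below 0.1. The share of all genes without overlap was not counted.

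**Figure D4:**
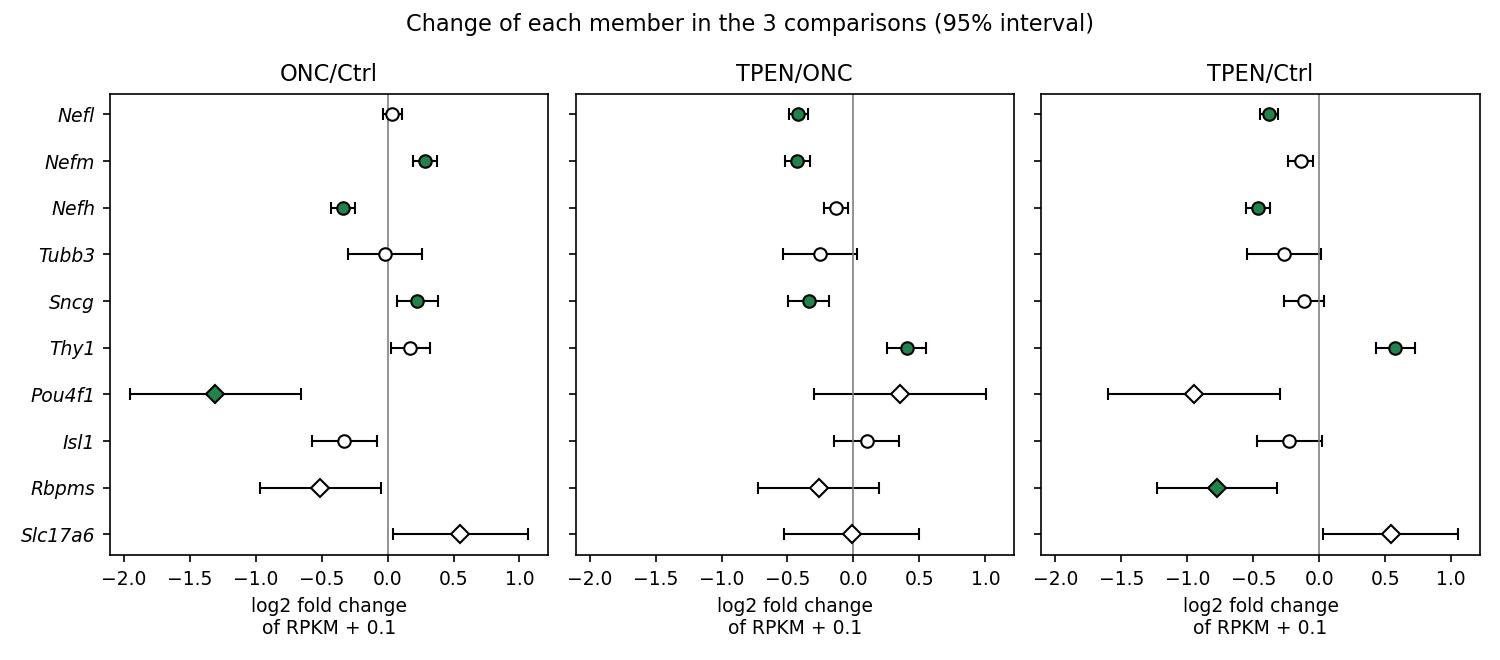
Log2 fold change of RPKM + 0.1 of the 10 genes in the 3 comparisons, with 95% intervals; filled points have a limma adjusted p under 0.05, and diamonds are the 3 genes tested without the limit on low genes. Nefl and Nefm lie below 0 and Thy1 above 0 in TPEN/ONC, and Pou4f1 lies farthest from 0 in ONC/Ctrl.

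Of the 7 genes tested with the limit, 2 rose (Nefm, Sncg) and 1 fell (Nefh) in ONC/Ctrl, where 11.7% of 13566 genes rose and 6.97% fell. In TPEN/ONC, 1 rose (Thy1) and 3 fell (Nefl, Nefm, Sncg), against 3.24% and 4.14% of all genes. In TPEN/Ctrl, 1 rose (Thy1) and 2 fell (Nefl, Nefh), against 8.36% and 5.01%. The same shares of all genes tested are the background for the counts of the cell-type and gene lists below. Without the limit, the called shares of 15228 genes in the same order of comparisons were 19.1%, 7.68% and 13.5%. Of the 3 low genes, Pou4f1 was called in ONC/Ctrl and Rbpms in TPEN/Ctrl, and 0 of 3 in TPEN/ONC with limma, where 0 had an unadjusted p under 0.05 and 0 were called on whole reads with voom. The ONC libraries enter the first 2 comparisons, so a gene that was by chance high in them would rise in one and fall in the other.

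Markers of other retinal cells that could hold these transcripts were set beside the members. For the neurofilaments, 5 of 7 horizontal cell markers were listed. Onecut1, Onecut3 and Calb1 had means of 0.171, 0.197 and 0.488 RPKM, Prox1 2.11 RPKM and Sept4 32.0 RPKM. The mean of Sept4 lay above the 26.1 RPKM of Nefh and below the 51.5 RPKM of Nefm and the 240 RPKM of Nefl, and the other 4 lay below all 3 neurofilaments. Of the 2 that could be tested, Sept4 fell in ONC/Ctrl (log2 fold change -0.23) and in TPEN/Ctrl (-0.31), the comparisons in which Nefh also fell, and Prox1 rose in TPEN/ONC (0.60). The summed horizontal cell level was 38.6 to 40.1 RPKM in Ctrl, 32.6 to 33.9 in ONC and 31.8 to 33.2 in TPEN, and without Sept4 it was 2.67 to 3.29, 2.19 to 2.73 and 3.00 to 3.73 RPKM. The part of horizontal cells in the neurofilament changes was not tested.

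For Isl1, all 10 markers of ON and rod bipolar cells were listed, with means of 0.573 to 15.4 RPKM against 1.83 RPKM for Isl1. Their sum was 56.6 to 57.3 RPKM in Ctrl, 50.7 to 52.8 in ONC and 54.7 to 57.2 in TPEN. In ONC/Ctrl, 2 of the 10 fell (Grm6, the glutamate receptor of ON bipolar cells, at -0.35 on the log2 scale, and Lrtm1 at -0.29), and the median was -0.16, where that of all genes tested was 0.02. In TPEN/ONC, 2 rose (Lrtm1 at 0.46 and Trpm1, the channel that Grm6 controls, at 0.41), with a median of 0.16 against -0.01 for all genes. Of 6 starburst amacrine markers, Sox2 (6.92 RPKM) and Megf10 (0.486 RPKM) were listed, and their sum was 5.81 to 7.04 RPKM in Ctrl, 7.23 to 7.91 in ONC and 7.31 to 8.67 in TPEN. Sox2 rose in TPEN/Ctrl (log2 fold change 0.32). It is also a gene of Müller glia, so it does not separate the 2 sources. The parts of bipolar and starburst cells in the level of Isl1 were not tested.

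For Thy1, none of the 5 T cell markers was among the listed genes, and the gate selected against a leukocyte protein. Of 6 fibroblast markers 1 was listed, Pdgfra, at 0.112 RPKM. The sum of that list was 0.0979 to 0.125 RPKM in Ctrl, 0.0738 to 0.130 in ONC and 0.0898 to 0.160 in TPEN, against 4.54 to 7.58 RPKM for Thy1. For Rbpms, which smooth muscle and pericytes also express, 4 of 8 endothelial cell and pericyte markers were listed. Among them Rgs5 (0.644 RPKM) and Pdgfrb (0.280 RPKM), genes of pericytes, were near the 0.439 RPKM of Rbpms, and Kdr, a receptor of endothelial cells, was at 12.4 RPKM. The sum was 11.9 to 12.6 RPKM in Ctrl, 14.0 RPKM in every ONC library and 15.04 to 15.95 RPKM in TPEN, and Kdr rose in ONC/Ctrl (log2 fold change 0.23) and TPEN/Ctrl (0.40). Pecam1, the other endothelial marker listed, was at 0.580 RPKM and passed in no comparison. Without Kdr the sum was 1.47 to 1.71 RPKM in Ctrl, 1.32 to 1.70 in ONC and 1.31 to 1.61 in TPEN. Pdgfrb was at 0.381 RPKM in Ctrl, 0.217 in ONC and 0.241 in TPEN, with log2 differences of -0.59 in ONC/Ctrl and -0.51 in TPEN/Ctrl that did not pass in the fit without the filter (limma adjusted p = 0.0688 and 0.130). Its 3 ONC libraries lay below the 3 Ctrl libraries, as those of Rbpms did. Rgs5 was at 0.674, 0.725 and 0.533 RPKM and passed in no comparison, although its TPEN libraries lay below those of Ctrl and ONC. The parts of pericytes and endothelial cells in the level of Rbpms were not tested.

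Amacrine cells, which also contain some Tubb3, had 8 of 8 markers listed, with a sum of 28.6 to 30.9 RPKM in Ctrl, 23.9 to 24.6 in ONC and 27.8 to 31.4 in TPEN. Of 5 tested, 1 fell in ONC/Ctrl (Slc6a9, the glycine transporter, -0.35), and 3 rose in TPEN/ONC (Tfap2c at 1.28, Slc32a1 at 0.56 and Slc6a9 at 0.23). In TPEN/Ctrl, 2 rose (Tfap2c at 0.94 and Slc32a1 at 0.58, limma adjusted p = 0.00300 and 0.0247). At an unadjusted p under 0.05, 1 of the 5 was lower in TPEN/ONC and 1 in TPEN/Ctrl. Thy1 also rose in TPEN/ONC and TPEN/Ctrl, and the part of amacrine cells in its level was not tested. Of the 9 markers of microglia and macrophages, leukocytes of the retina against which the gate also selected, 8 were tested, and all 8 rose in ONC/Ctrl with a median log2 fold change of 2.65, and 5 fell in TPEN/ONC with a median of -0.82. Their sum was 7.94 to 8.11 RPKM in Ctrl, 41.9 to 44.5 in ONC and 25.4 to 29.1 in TPEN. Nefm, Nefh, Sncg and Pou4f1 changed over the same crush in which the microglia and macrophage markers rose, and the part of these cells was not tested.

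Among 25 other genes of RGCs, 14 were listed and 10 tested. In ONC/Ctrl, 4 rose and 1 fell, against 11.7% and 6.97% of all genes tested. The median log2 fold change of the 10 was 0.21, where that of all genes tested was 0.02. The largest rise of the 10 was that of Gap43, a growth cone protein of regenerating axons, from 7.79 ± 0.00437 RPKM in Ctrl to 24.0 ± 0.730 RPKM in ONC (mean ± SD, n = 3; log2 fold change 1.61, limma adjusted p = 4.9e-09). In TPEN/ONC, 1 rose and 2 fell, against 3.24% and 4.14% of all genes tested, with a median of -0.12 against -0.01. Gap43 fell to 19.6 ± 0.323 RPKM (-0.28, limma adjusted p = 0.00210), Nrn1, a neuritin gene, fell by 0.56 on the log2 scale, and Ebf3, a transcription factor, rose by 1.07. In TPEN/Ctrl, 3 rose and 0 fell with limma, against 8.36% and 5.01% of all genes tested, with a median of 0.15 against 0.01. At an unadjusted p under 0.05, 1 of the 10 was lower there (Rbpms2), and voom on whole reads called 0 lower. The other 4 listed genes lay under the filter. In the fit without it, Tusc5 was at 0.367 RPKM in Ctrl, 0.123 in ONC and 0.0991 in TPEN. Tusc5 fell in ONC/Ctrl (log2 fold change -1.11, limma adjusted p = 0.0138) and in TPEN/Ctrl (-1.25, limma adjusted p = 0.0106). It held 25 to 28 reads in Ctrl, 4 to 14 in ONC and 4 to 10 in TPEN. Only Ctrl reached the RPM that each listed gene had in at least 2 libraries. The listing thus favoured its fall in ONC/Ctrl and in TPEN/Ctrl. Sox11, a transcription factor, was at 0.0255, 0.138 and 0.106 RPKM and rose in the same comparisons (0.92, limma adjusted p = 0.00451, and 0.72, limma adjusted p = 0.0235). Its Ctrl libraries held 3 to 7 reads, against 21 to 34 in ONC and 14 to 21 in TPEN. Sox11 was thus listed only through crushed libraries, which favoured its rise in both comparisons. Ebf1 and Chrna6 did not pass in any comparison, and none of the 4 passed in TPEN/ONC.

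Among other intermediate filament genes, 6 were tested. Of these, 4 rose in ONC/Ctrl (Gfap, 2.95; Nes, 2.89; Vim, 1.59; Prph, 1.44 on the log2 scale), and the median was 1.51. Gfap, the filament of astrocytes and reactive Müller glia, was at 2.79 ± 0.0524 RPKM in Ctrl, 22.2 ± 0.606 in ONC and 14.4 ± 0.885 in TPEN. In TPEN/ONC, 3 fell (Prph, -1.17; Gfap, -0.62; Vim, -0.38), with a median of -0.32. Prph encodes peripherin, a neuronal filament that can assemble with neurofilaments, and had 0.3605 ± 0.0312 RPKM in Ctrl, 1.19 ± 0.433 in ONC and 0.458 ± 0.0967 in TPEN. Its mean over the 9 libraries, 0.670 RPKM, reached the limit of 0.5 RPKM only through ONC. The limit thus favoured its rise in ONC/Ctrl and its fall in TPEN/ONC. Ina, the other partner of the neurofilament subunits, did not pass in any comparison (log2 fold changes -0.26, 0.25 and -0.00).

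Of 23 microtubule and axon cytoskeleton genes, 13 rose and 1 fell in ONC/Ctrl, 4 rose and 7 fell in TPEN/ONC, and 9 rose and 2 fell in TPEN/Ctrl. Their medians were 0.14, -0.05 and 0.11 on the log2 scale, against 0.02, -0.01 and 0.01 for all genes tested. The highest was Map1b, a microtubule-associated protein, with 251 RPKM (rank 143), which rose in ONC/Ctrl (0.68) and TPEN/Ctrl (0.78), where Nefl did not pass and fell, respectively. The largest change was the rise of Tubb2b in ONC/Ctrl (1.64), while Tubb3 of the same family gave -0.02.

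The gene whose levels followed the neurofilaments most closely was Kif5a, the kinesin heavy chain that carries neurofilaments along axons. Over the 9 libraries, among 12140 genes whose mean reached 1 RPKM, its Pearson r with the mean standardized log2 level of Nefl, Nefm and Nefh was 0.990. Its means were 76.1 RPKM in Ctrl, 78.8 in ONC and 61.1 in TPEN. Next came Fosb (0.987), Ppp1r9b (0.984), Ip6k2 (0.965) and Safb2 (0.962), all lowest in TPEN. These r values describe 9 libraries in 3 groups that share the same group differences, and they were ranked from all genes searched.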

How the data were processed

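RNA was measured in 9 libraries of cells sorted as RGCs. The libraries were stranded and carried unique molecular identifiers. Whether identifiers or strand were used in counting is not given in the sources used here. The authors trimmed reads with Trimmomatic 0.36 (submitters' processing notes), mapped them to GRCm38/mm10 with STAR, and deposited RPKM values, exon lengths, and their own fold changes and p-values, which were not used. Each listed gene reached 1.00 RPM in at least 2 libraries. RPKM times length gave whole reads for all values (tolerance 0.01).

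Samples were grouped by their titles. Differences were tested with limma 3.58.1 (R 4.3.3), letting the variance follow the mean level, on log2(RPKM + 0.1) of the 13566 genes whose mean reached 0.5 RPKM, 1 coefficient per group and Benjamini-Hochberg adjustment over all of them. The added 0.1 RPKM understates changes of low genes. The fit was tested on simulated data. Ratios were tested by exact two-sided permutation. The members, gene lists and tests were chosen with earlier results of these data known. Named were all 10 members, all listed horizontal cell markers, and the 5 genes most like the neurofilaments. Of each other list at most 4 genes were named, but more of the other RGC genes and the other intermediate filaments. These had the highest level or largest change, and others were chosen after their values were seen. Alternatives were quantile normalization, other filters and pseudocounts, fewer libraries, a replicate block, and voom on whole reads. A count of 3 reads corresponds to 0.130 to 0.150 RPM, which covers counting error only.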

Additional observations from a re-analysis of the deposited data

How the results depend on the processing

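Of 462 alternative values for single changes of the 10 genes, 423 kept direction and side of the threshold, 20 lost a call, 13 gained one and 6 turned. The number of members called was 3 in ONC/Ctrl (2 to 4 over all alternatives), 4 in TPEN/ONC (3 to 4) and 3 in TPEN/Ctrl (3 to 5). The count of 5 came without the filter on low genes, where Nefm and Rbpms were added. Leaving out 1 library at a time gave 2 to 3, 3 to 4 and 3 to 4 members. Tubb3 in ONC/Ctrl turned to 0.085 without Ctrl replicate 3 or ONC replicate 1, with a range of -0.11 to 0.085 over the libraries left out. Slc17a6 in TPEN/ONC turned to 0.0125 with quantile normalization, and to 0.0455, 0.0560 and 0.19 without ONC replicate 1, ONC replicate 3 and TPEN replicate 1. None of these passed. Fits of the 3 low genes under settings other than the filter itself were added after seeing the data. Both ratios kept an exact p under 0.05 with 1 RPKM added and without each library.

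Same-numbered libraries of different groups had correlations of -0.06 to 0.03 between their deviations, and a library was most like its own number in 4 of 18 cases, so the numbers were not taken to pair them. With the replicate block, 2 members were called in ONC/Ctrl (Sncg was lost, limma adjusted p = 0.0805), 4 in TPEN/ONC and 3 in TPEN/Ctrl, and Rbpms lost its call in TPEN/Ctrl (limma adjusted p = 0.0585). Depth limits Pou4f1, Rbpms and Slc17a6, with 8 to 71 reads in a library.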

Other observations

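Cone markers were all higher in TPEN than in Ctrl (9 of 9, median log2 fold change 0.65), and 7 of 9 rose in TPEN/ONC with a median of 0.75, while 1 fell. Pde6c, the cone phosphodiesterase, had the largest rise in TPEN/ONC, 0.96 on the log2 scale (limma adjusted p = 8.8e-07). In ONC/Ctrl, 4 cone markers fell and 2 rose. Their summed level was 158 to 165 RPKM in Ctrl, 187 to 197 in ONC and 269 to 272 in TPEN. Gnb3, a G protein subunit of cones and ON bipolar cells, was at 21.0 RPKM in Ctrl, 66.9 in ONC and 57.6 in TPEN, and without it the sum was 136 to 144 RPKM in Ctrl, 121 to 129 in ONC and 211 to 215 in TPEN. Thy1 rose over the same 2 comparisons with TPEN, and the part of cones in its level was not tested.

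Of 9 rod markers, 6 fell and 1 rose in ONC/Ctrl, 2 rose and 1 fell in TPEN/ONC, and 5 fell in TPEN/Ctrl. Of 9 Müller glia markers, 2 rose and 3 fell in ONC/Ctrl, 2 rose and 3 fell in TPEN/ONC, and 1 rose and 2 fell in TPEN/Ctrl. Glul, glutamine synthetase, fell by 0.57 on the log2 scale in ONC/Ctrl. Of 3 astrocyte markers tested, 2 rose in ONC/Ctrl and in TPEN/Ctrl, and Gfap fell in TPEN/ONC. Of 5 retinal pigment epithelium markers 1 was listed, Ttr, at 8.55 RPKM. Ttr rose in ONC/Ctrl (log2 fold change 0.51, limma adjusted p = 0.0186) and in TPEN/Ctrl (0.50, limma adjusted p = 0.0269), and did not pass in TPEN/ONC (-0.01). B3gat1, a gene behind one surface epitope that the sort avoided, was at 2.17 RPKM and fell by 0.33 on the log2 scale in ONC/Ctrl. Of 5 relatives of the members, Sncb rose in ONC/Ctrl and Slc17a7 fell in TPEN/Ctrl.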
